A study of Homo sapiens with 24 samples.

Results

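This report follows 40 mitosis and G2 genes, the genes that carry a human cell from the end of DNA replication through chromosome segregation and the final cut between daughter cells. They were chosen by name as mitotic kinases, checkpoint, kinetochore, spindle and cytokinesis genes, with earlier results of these data known. All 40 were found among the 60617 genes of the count table. Of these, 39 had enough counts to be tested, among 13098 tested genes in all. NUSAP1, a microtubule-binding spindle protein, was the exception, with 0 to 9 counts per library and a mean of 0.836 CPM (counts scaled to the library total).

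The cells were THP1, a human monocytic leukaemia line that becomes macrophage-like when exposed to the phorbol ester PMA. All groups shared the same lentiviral exposure for 24 hours, puromycin selection at 1 µg/ml, 10 ng/ml PMA for 48 hours and a further 48 hours without it. WT_shCTRL was wild type with empty pLKO.1 and WT_shPTPN6 was wild type with a hairpin against PTPN6, the gene of the phosphatase SHP-1. CD33KO_shCTRL and CD33KO_shPTPN6 were CD33 knockout cells with the same 2 vectors; CD33 encodes an inhibitory Siglec receptor of myeloid cells. Each group had 6 libraries except CD33KO_shPTPN6, which had 5, since its replicate 2 was not analysed here. The labels do not say whether the knockout line was 1 clone or whether replicates were separate cultures. All p-values therefore measure only the spread between these libraries.

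In a dividing cell, CDK1 with cyclin A or B starts mitosis, and CDC25 phosphatases and the kinases PLK1 and Aurora A help to switch it on. Kinetochore proteins attach chromosomes to the spindle, the spindle assembly checkpoint holds the cell back until every chromosome is attached, and CDC20 then turns on the anaphase-promoting complex, which destroys securin and cyclin B. Most of these genes are transcribed in G2 under the B-MYB-MuvB complex and FOXM1 and are repressed in resting cells by the DREAM complex, through promoter elements called the cell cycle homology region and the NF-Y box. PMA is known to halt the proliferation of most THP1 cells.

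The promoters show the sequence features that many of these genes share. RefSeq windows on GRCh38.p14, from 250 bases before to 50 after the start, were available for 33 of the 40 genes, and those of FOXM1, AURKA, BUB3, TTK, UBE2C, TPX2 and BIRC5 were not used here. The stretches below are written 5′ to 3′ on the gene's strand, with the letters of the cell cycle homology region (TTTGAA) and of the NF-Y box (CCAAT), or their reverse complements, in capitals. MKI67 is shown because its matches to TTTGAA lie close to the start, as most did, CDK1 because its single match lies far from it, CDC20 because its level went its own way, TOP2A because its level in both control groups overlapped, and ANLN because it rose where others fell. Bases that GENCODE release 29 places in an exon of the same gene were left out for the first 4. ANLN is shown as a 30-base site, which lies wholly in an ANLN exon by that release.
CDK1: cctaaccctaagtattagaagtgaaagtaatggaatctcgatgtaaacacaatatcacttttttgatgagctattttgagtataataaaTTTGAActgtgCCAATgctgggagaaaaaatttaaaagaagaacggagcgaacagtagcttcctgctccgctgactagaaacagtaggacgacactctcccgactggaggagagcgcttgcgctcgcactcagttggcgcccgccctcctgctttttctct
MKI67: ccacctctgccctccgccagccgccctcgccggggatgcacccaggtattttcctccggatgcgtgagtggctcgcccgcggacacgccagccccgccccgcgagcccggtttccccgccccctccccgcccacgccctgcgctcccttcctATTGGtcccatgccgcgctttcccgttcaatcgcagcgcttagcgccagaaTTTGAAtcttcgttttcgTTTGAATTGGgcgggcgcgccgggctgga
CDC20: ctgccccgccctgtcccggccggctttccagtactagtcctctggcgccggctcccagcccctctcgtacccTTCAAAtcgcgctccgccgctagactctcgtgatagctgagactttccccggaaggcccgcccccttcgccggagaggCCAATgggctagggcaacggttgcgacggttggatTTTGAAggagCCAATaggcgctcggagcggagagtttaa
TOP2A: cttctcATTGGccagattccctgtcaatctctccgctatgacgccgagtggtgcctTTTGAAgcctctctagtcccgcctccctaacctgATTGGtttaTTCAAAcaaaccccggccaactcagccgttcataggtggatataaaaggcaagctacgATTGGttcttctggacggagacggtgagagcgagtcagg
ANLN: gctcggcgctgaaaTTCAAATTTGAAcggc
The CDK1 stretch lies at chr10:60778081-60778330 on the plus strand and MKI67 at chr10:128126424-128126673 on the minus strand. CDC20 lies at chr1:43358731-43358954 on the plus strand, TOP2A at chr17:40417951-40418146 on the minus strand, and the ANLN site at chr7:36389822-36389851 on the plus strand.

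The letters TTTGAA or TTCGAA, searched on both strands, were in 24 of 33 windows of the mitosis and G2 genes (72.7%), against 13.5% of 15843 windows of protein-coding genes and 16.6% of all 27305 windows. The NF-Y letters CCAAT were in 25 of 33 (75.8%), against 36.4% of protein-coding and 35.7% of all windows, and both together in 20 (60.6%) against 5.57% and 6.58%. The E2F letters TTTCGCGC, TTTGGCGC, TTTCCCGC or TTTGCCGC were in 3 windows (9.09%), those of CDK1, CENPA and NUSAP1, against 4.44% and 3.33%. In 50 genes of DNA replication and S phase TTTGAA or TTCGAA was in 4.65%, the NF-Y letters in 51.2% and the E2F letters in 53.5% of 43 windows. Of 34 matches to TTTGAA or TTCGAA in the mitosis and G2 genes, 23 lay within 50 bases of the start. Of 55 NF-Y matches, 40 lay from 150 to 51 bases before it. In MKI67 an NF-Y match overlaps a TTTGAA match, which is why the capitals run together there. ANLN had a pair of adjacent TTTGAA matches on opposite strands and no NF-Y match, and CDC25B had neither motif in its window. CDC25C, CENPE and KIF2C, which did not rise on knockdown, also had neither, and BUB1B, NDC80 and NUF2 had no NF-Y match. A match is a description of letters, and its part in the levels below was not tested.

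**Figure D1:**
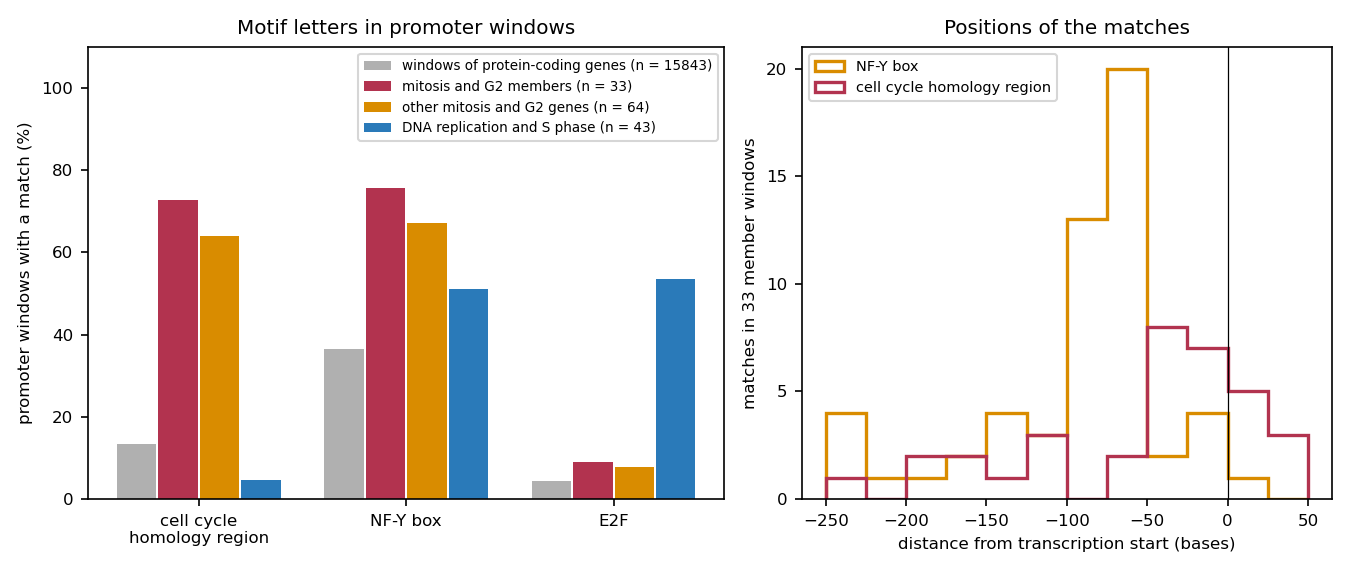
Left, percent of 300-base promoter windows with a match to each motif (bars) in 15843 protein-coding genes, 33 mitosis and G2 genes, 64 other mitosis and G2 genes and 43 genes of DNA replication and S phase. Right, number of matches in the 33 windows by distance from the transcription start in bases; NF-Y matches gather at 51 to 150 bases before the start and those of the cell cycle homology region within 50 bases of it.

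Values are counts from the 3' ends of polyadenylated transcripts, scaled to CPM with library factors that equalise the bulk of genes (TMM). WT_shCTRL libraries held 4170191 to 5700712 counts, WT_shPTPN6 libraries 3318001 to 6269304, and the totals were 2048161 to 3749258 in CD33KO_shCTRL and 2024032 to 2581042 in CD33KO_shPTPN6, so knockout values rest on fewer counts. PTPN6 stood at 35.8 to 52.4 CPM in WT_shCTRL and 32.6 to 44.1 in CD33KO_shCTRL, and at 8.73 to 12.8 and 4.94 to 11.9 CPM in the corresponding hairpin groups. CD33 ran from 39.7 to 48.5 CPM in wild type with the control vector and from 81.3 to 94.9 with the hairpin. In the knockout it ran from 16.2 to 22.5 and from 15.7 to 29.0 CPM. The position of the edit in CD33 is not given in the labels, so 3' counts do not check it.

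PTPN6 knockdown lowered most of the mitosis and G2 genes in both lines, and most of those by more in the CD33 knockout. In the knockout, 37 of the 39 tested genes fell and 0 rose. The median was -1.19 on the log2 scale, with a range of -2.15 to -0.22, and 29 fell by 2-fold or more. For this and later 2-fold counts, the share over all genes was not taken. In bulk RNA, fewer cycling cells and less RNA per cycling cell cannot be told apart. Over all 13098 genes in that comparison, 21.6% were called lower and 20.5% higher, with a median of -0.01. A gene was called when its edgeR quasi-likelihood p, adjusted over all tested genes by Benjamini-Hochberg, was under 0.05. In wild type the same hairpin lowered 27 genes and raised 2, CDC25B and ANLN, with a median of -0.45, against 30.4% lower and 30.2% higher over all genes. CDC20 was the single gene there that fell by 2-fold or more.

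The difference between these 2 knockdown effects was itself called for 33 of 39 genes with the lower value in the knockout, and for 0 in the other direction. Of these, 31 fell in the knockout with a lower log2 value than in wild type, and CDC25B and ANLN rose in wild type and had no called change in the knockout. Its median log2 value was -0.84, with a range of -1.62 (KIF23) to 0.07 (BUB3), and 13.9% of all genes were called in that direction and 14.5% in the other. The 6 genes whose difference was not called were BUB3, CENPA, CENPE, CENPF, NUF2 and PRC1. Both knockdown comparisons use separate libraries. Of the 39, 27 were lower in both, and 10 were called lower in the knockout and not called in wild type. CDC25B and ANLN were higher in wild type and not called in the knockout. The shares of all genes with each pair of calls were not taken. Taken singly, 30.4% of all genes were lower in wild type and 21.6% in the knockout.

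CD33 knockout with the control vector had a smaller effect on the mitosis and G2 genes. It lowered 24 of 39 and raised 1, CDC20, with a median of -0.28, against 28.4% of all genes lower and 28.3% higher. CDC25B alone fell by 2-fold or more. Under PTPN6 knockdown the knockout line stood below wild type for 38 of 39 genes, with a median of -1.06 and 22 genes lower by 2-fold or more, where all genes had 27.5% lower and 29.0% higher. Cells with both changes stood below WT_shCTRL for 39 of 39 genes, with a median of -1.52, a range of -2.43 (CENPA) to -0.47 (ANLN) and 34 genes lower by 2-fold or more. Over all genes 31.7% were lower and 32.1% higher in that comparison. These 3 comparisons share libraries with those above, so their counts are not separate evidence.

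Group means were lowest in CD33KO_shPTPN6 for all 39 tested genes. They were highest in WT_shCTRL for 28, in WT_shPTPN6 for 7 (CCNA2, CDC25B, FOXM1, PLK1, KIF23, ANLN and ECT2) and in CD33KO_shCTRL for 4 (AURKA, BUB1B, CDC20 and SPC25). The order of group means was not taken over all genes. For 31 genes (79.5%) every CD33KO_shPTPN6 library lay below every library of the other 3 groups, against 3% of all tested genes. CDC25B, BUB1, BUB3, CDC20, CENPE, DLGAP5, ANLN and ECT2 overlapped with at least 1 other library. Summed over the 40 genes, the level ran from 2205 to 2389 CPM in wild type with the control vector and 1567 to 1717 with the hairpin. In the knockout it ran from 2107 to 2240 CPM with the control vector and 819.5 to 940.4 with the hairpin.

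**Figure D2:**
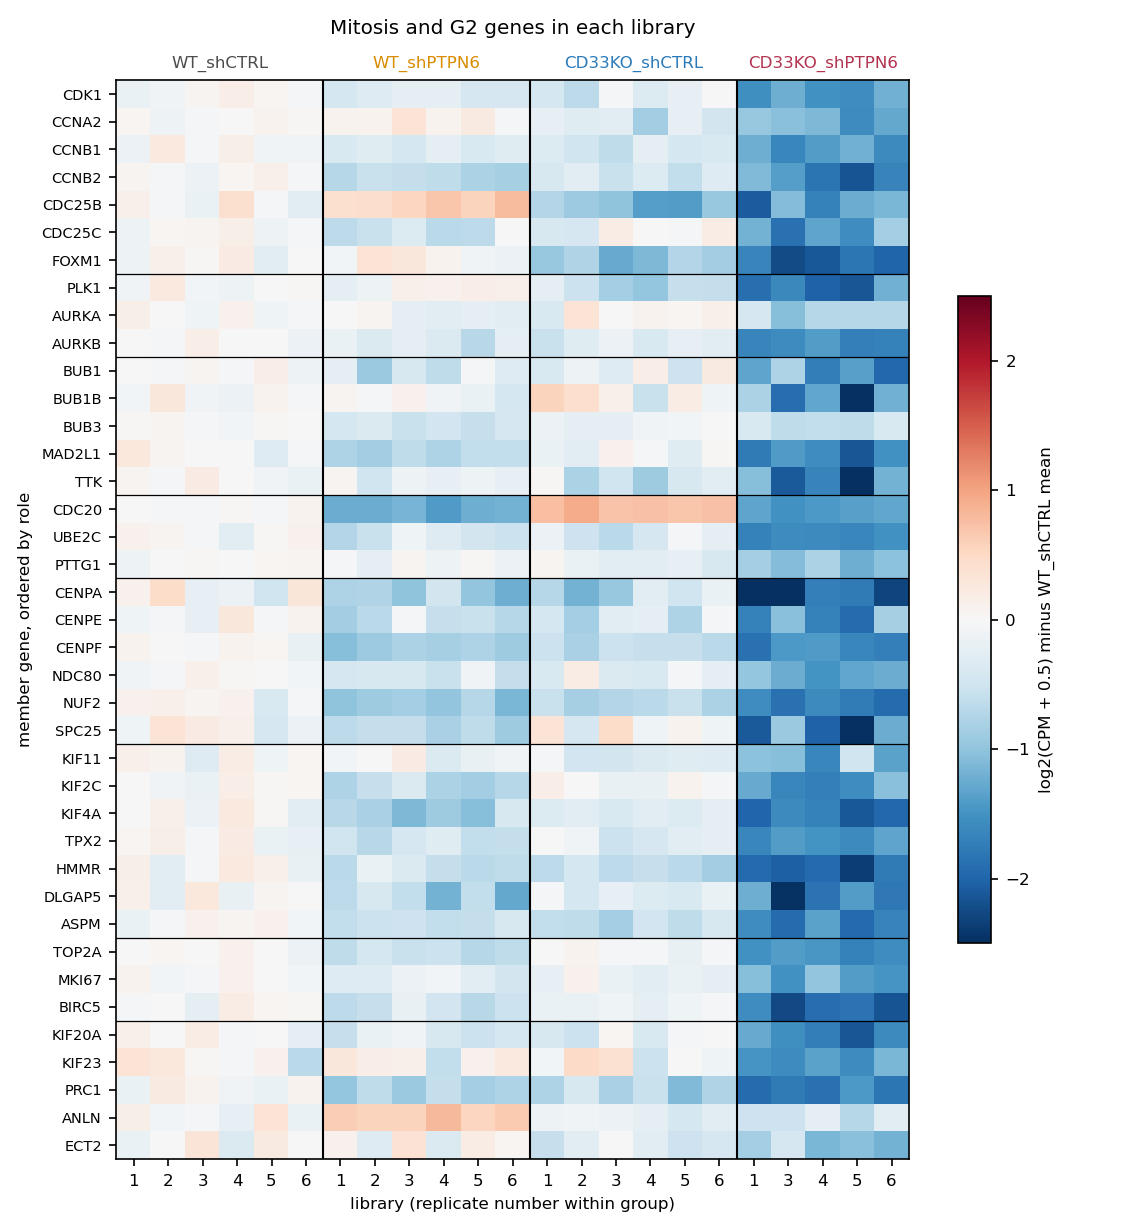
Each row is 1 of the 39 tested genes, ordered by role, and each column 1 of 23 libraries, numbered by replicate. Colour is log2(CPM + 0.5) minus the gene's WT_shCTRL mean, from blue (lower) to red (higher); the 5 CD33KO_shPTPN6 libraries are the bluest columns, and CDC20, CDC25B and ANLN have rows of their own pattern.

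Among genes of entry into mitosis, CDK1, the kinase that drives it, ran from 84.6 to 107.5 CPM in WT_shCTRL (median 95.8). It ran from 70.05 to 81.7 in WT_shPTPN6 (median 73.5) and from 60.05 to 94.6 in CD33KO_shCTRL (median 79.2). The 5 CD33KO_shPTPN6 libraries held 32.6, 40.7, 33.2, 32.0 and 40.9 CPM, all below every other library. On knockdown CDK1 changed by -0.35 ± 0.07 (log2, SE) in wild type (edgeR adjusted p = 4.42e-06), and in the knockout by -1.14 ± 0.10 (adjusted p = 2.89e-18). The cyclins that pair with it moved as a group in the knockout, where CCNA2 (cyclin A2) changed by -0.83, CCNB1 (cyclin B1) by -1.01 and CCNB2 (cyclin B2) by -1.19, all called. In wild type CCNB1 and CCNB2 fell by 0.35 and 0.70, while CCNA2 stood at 0.14 ± 0.09 and was not called (adjusted p = 0.172).

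FOXM1, the transcription factor that works with B-MYB in G2, stood at 21.3 ± 2.52 CPM (mean ± SD, n = 6) in WT_shCTRL and 22.4 ± 3.26 (n = 6) in WT_shPTPN6. It stood at 10.8 ± 1.598 (n = 6) in CD33KO_shCTRL and 5.12 ± 0.929 (n = 5) in CD33KO_shPTPN6. Between the lines it differed by -0.96 ± 0.14 with the control vector (knockout less wild type, edgeR adjusted p = 4.19e-09) and by -2.13 ± 0.19 with the hairpin (adjusted p = 6.97e-19). Knockdown within the knockout gave -1.10 ± 0.22 (adjusted p = 2.02e-05), and within wild type FOXM1 was not called (0.08 ± 0.11, adjusted p = 0.579).

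The 2 CDC25 phosphatases, which remove the inhibitory phosphates of CDK1, behaved differently. CDC25B ran from 11.65 to 18.85 CPM in WT_shCTRL (median 13.7), 18.93 to 24.7 in WT_shPTPN6 (median 20.8) and 5.05 to 8.31 in CD33KO_shCTRL (median 6.89). The CD33KO_shPTPN6 libraries held 2.96, 6.4, 4.04, 5.67 and 6.13 CPM and overlapped with CD33KO_shCTRL. Knockdown raised CDC25B by 0.55 ± 0.13 in wild type (edgeR adjusted p = 6.18e-05), and in the knockout its change was -0.34 ± 0.26 and not called (adjusted p = 0.291). In the knockout with control vector it fell by 1.16 ± 0.17 (adjusted p = 6.81e-09). CDC25C was at -0.06 ± 0.16 in that comparison (adjusted p = 0.773) and fell on knockdown by 0.48 in wild type and 1.33 in the knockout.

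The mitotic kinases PLK1 and Aurora A (AURKA) did not pass the test on knockdown in wild type, at 0.03 ± 0.10 and -0.15 ± 0.08 (edgeR adjusted p = 0.824 and 0.0907). AURKA passed when WT_shPTPN6 replicate 2 was left out (adjusted p = 0.0395). In the knockout PLK1 fell by 1.14 ± 0.18 and AURKA by 0.77 ± 0.11. AURKA ran from 53.3 to 63.75 CPM in WT_shCTRL (median 57.1), 47.6 to 60.5 in WT_shPTPN6 (median 49.1) and 44.0 to 73.3 in CD33KO_shCTRL (median 60.6). In CD33KO_shPTPN6 it was at 43.0, 27.4, 35.0, 35.0 and 35.2 CPM, below every other library. AURKB, the kinase of the chromosomal passenger complex, fell in wild type (-0.33 ± 0.08) and more in the knockout (-1.32 ± 0.12), and the difference of -0.99 ± 0.15 was called (adjusted p = 1.85e-08).

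In the spindle assembly checkpoint, which delays anaphase, BUB3 stood apart from its partners. It was at 164.2 to 182.7 CPM in WT_shCTRL (median 174.1), 116.1 to 134.9 in WT_shPTPN6 (median 125.6) and 146.2 to 171.2 in CD33KO_shCTRL (median 158.8). CD33KO_shPTPN6 libraries held 132, 112, 112, 111 and 133 CPM, which overlapped with WT_shPTPN6. On knockdown BUB3 fell by 0.47 ± 0.05 in wild type (edgeR adjusted p = 1.21e-13), and in the knockout it fell by 0.40 ± 0.07 (adjusted p = 1.43e-07), and the difference of 0.07 ± 0.08 was not called (adjusted p = 0.57). BUB3 also lacked a called difference between the lines under knockdown (-0.06 ± 0.06, adjusted p = 0.471).

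The other 4 checkpoint genes fell further in the knockout. BUB1B, the BUBR1 scaffold, changed by -0.08 ± 0.13 in wild type (not called) and by -1.63 ± 0.21 in the knockout, and TTK, the MPS1 kinase, by -0.17 ± 0.12 (not called) and -1.24 ± 0.21. BUB1, a kinase that recruits checkpoint proteins to kinetochores, fell by 0.40 and 1.28, and MAD2L1, which holds CDC20 inactive, by 0.73 and 1.58. The difference between lines was -1.56 ± 0.25 for BUB1B (edgeR adjusted p = 1.1e-07), the second largest among the mitosis and G2 genes after KIF23.

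CDC20, the activator of the anaphase-promoting complex, had a pattern of its own. It ran from 269.6 to 296.4 CPM in WT_shCTRL (median 276.2), 103.8 to 124.8 in WT_shPTPN6 (median 118.9) and 454.2 to 532.2 in CD33KO_shCTRL (median 465.0). The CD33KO_shPTPN6 libraries were at 112, 97.8, 103, 108 and 114 CPM, so both hairpin groups overlapped while both control groups stood far above them and apart from each other. Knockout with the control vector raised CDC20 by 0.76 ± 0.05 (edgeR adjusted p = 8.01e-29), the single rise among the 39 genes in that comparison. On knockdown it fell by 1.24 ± 0.05 in wild type (adjusted p = 1.09e-43) and by 2.15 ± 0.06 in the knockout (adjusted p = 1.51e-57), the deepest fall of any tested mitosis and G2 gene in both lines.

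Between the hairpin groups CDC20 differed by -0.14 ± 0.06 (edgeR adjusted p = 0.047). That call was lost without WT_shPTPN6 replicate 2 (adjusted p = 0.0534) or 5 (0.0519) and without CD33KO_shPTPN6 replicate 3 (0.163), 4 (0.104) or 5 (0.062). Set against the geometric mean of the other 38 genes in the same library, CDC20 had a median log2 ratio of 2.91 in WT_shCTRL, 2.07 in WT_shPTPN6, 3.98 in CD33KO_shCTRL and 3.06 in CD33KO_shPTPN6. The ratio was thus higher in each knockout group than in the wild-type group with the same vector, without overlap.

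The 2 other genes of this step act with or against the anaphase-promoting complex. UBE2C, the E2 enzyme that feeds it ubiquitin, fell by 0.45 ± 0.10 on knockdown in wild type and by 1.32 ± 0.15 in the knockout. PTTG1, securin, which guards the cohesin-cutting enzyme separase, ran from 102.6 to 117.4 CPM in WT_shCTRL (median 113.4), 96.7 to 117.4 in WT_shPTPN6 (median 106.3) and 85.4 to 117.3 in CD33KO_shCTRL (median 95.4). Its CD33KO_shPTPN6 libraries held 62.2, 52.6, 65.1, 47.9 and 54.8 CPM, below all others. PTTG1 was not called on knockdown in wild type (-0.07 ± 0.06, edgeR adjusted p = 0.349), and in the knockout it fell by 0.78 ± 0.08 (adjusted p = 2.99e-14). A pseudogene, UBE2CP5, held 810 counts over the 23 libraries, so reads of UBE2C may be split between the 2.

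**Figure D3:**
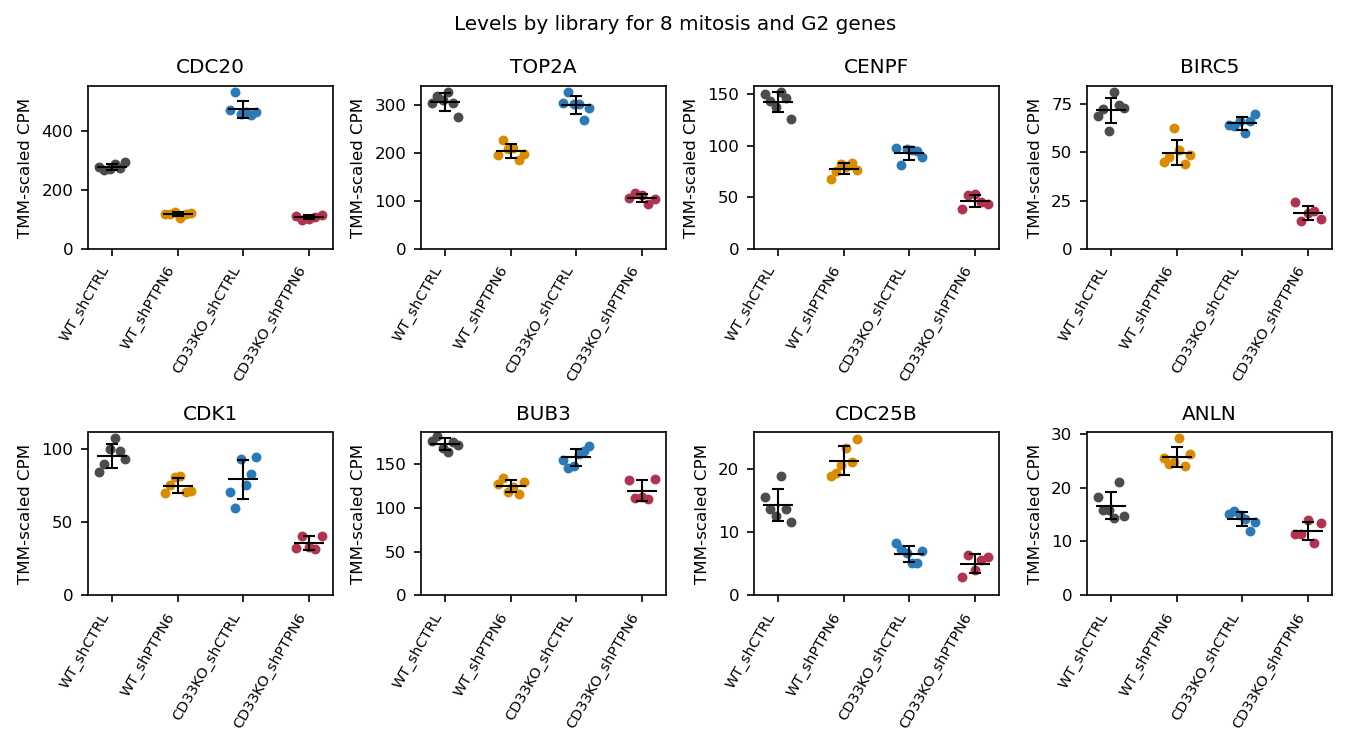
TMM-scaled CPM of 8 genes in each library (points), with group mean and SD (bars), for WT_shCTRL, WT_shPTPN6, CD33KO_shCTRL (6 libraries each) and CD33KO_shPTPN6 (5 libraries). CDC20 is highest in CD33KO_shCTRL at 454.2 to 532.2 CPM, CDC25B and ANLN are highest in WT_shPTPN6, and TOP2A, CENPF, BIRC5 and CDK1 are lowest in CD33KO_shPTPN6.

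Centromere and kinetochore genes, which bind chromosomes to microtubules, fell on knockdown in both lines, 6 of 6 in each, and 4 of 6 fell in the knockout with control vector. Of all genes, 30.4% were lower on knockdown in wild type, 21.6% in the knockout and 28.4% in the knockout with control vector. The difference between knockdown effects was called for 2 of the 6, NDC80 and SPC25, where 13.9% of all genes were called in that direction. CENPF, a large kinetochore protein of G2 cells, ran from 125.6 to 151.4 CPM in WT_shCTRL (median 144.7), 68.1 to 82.7 in WT_shPTPN6 (median 78.1) and 81.1 to 97.8 in CD33KO_shCTRL (median 95.1). It was at 38.5, 52.1, 53.0, 45.4 and 43.3 CPM in CD33KO_shPTPN6, below all other libraries. In the knockout with control vector CENPF fell by 0.62 ± 0.06 (edgeR adjusted p = 1.84e-15). On knockdown it fell by 0.89 ± 0.06 in wild type (adjusted p = 6.64e-26) and 0.99 ± 0.09 in the knockout (adjusted p = 9.14e-19), and the difference was -0.11 ± 0.11 and not called (adjusted p = 0.505).

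NUF2, a subunit of the NDC80 complex that grips microtubules, ran from 34.1 to 48.4 CPM in WT_shCTRL (median 47.5), 19.9 to 27.1 in WT_shPTPN6 (median 23.1) and 24.75 to 30.3 in CD33KO_shCTRL (median 27.2). CD33KO_shPTPN6 libraries held 14.8, 11.9, 14.4, 12.9 and 11.5 CPM. It fell by 0.95 ± 0.09 in wild type and by 1.09 ± 0.15 in the knockout, with a difference of -0.14 ± 0.18 (edgeR adjusted p = 0.63). Of its partners in the same complex, NDC80 fell by 0.42 in wild type and by 1.10 in the knockout, and SPC25 fell by 0.73 and by 1.85. CENPA, the histone variant that marks centromeres, was at 6.90 to 13.95 CPM in WT_shCTRL and at 0.988 to 2.69 in CD33KO_shPTPN6, and shares 138 exon bases on the same strand with SLC35F6. CENPE, a kinetochore motor, fell by 0.56 and 0.95, with a difference of -0.39 ± 0.23 that was not called (adjusted p = 0.226).

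Spindle motors and microtubule-binding proteins fell on knockdown in the knockout without exception, 7 of 7 tested, with a median of -1.38. Of all genes, 21.6% were lower there. TPX2, which activates Aurora A on spindle microtubules, was at 70.8 to 94.4 CPM in WT_shCTRL (median 82.7), 50.6 to 66.1 in WT_shPTPN6 (median 55.9) and 56.2 to 81.6 in CD33KO_shCTRL (median 69.0). In CD33KO_shPTPN6 it was at 26.2, 30.6, 28.7, 26.8 and 32.7 CPM, below every other library. On knockdown it fell by 0.52 ± 0.07 in wild type (edgeR adjusted p = 5.07e-10), and in the knockout it fell by 1.23 ± 0.11 (adjusted p = 1.04e-18).

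KIF11, the Eg5 motor that pushes spindle poles apart, was the single gene of this role not called on knockdown in wild type (-0.07 ± 0.12). KIF2C, a microtubule depolymerase, and KIF4A, a chromosome-bound motor, fell there by 0.67 and 0.84, and in the knockout at -1.41 and -1.604. HMMR, DLGAP5 and ASPM, which organise spindle microtubules and poles, fell by 0.54, 0.79 and 0.56 in wild type and by 1.38, 1.49 and 1.09 in the knockout. In the knockout with control vector HMMR and ASPM fell by 0.67 and 0.61, whereas KIF2C stood at -0.03 ± 0.08 and was not called.

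TOP2A, the topoisomerase that untangles sister chromatids, ran from 275.2 to 328.1 CPM in WT_shCTRL (median 306.8), 185.6 to 226.4 in WT_shPTPN6 (median 203.1) and 268.1 to 327.3 in CD33KO_shCTRL (median 301.5). The CD33KO_shPTPN6 libraries held 106, 116, 112, 94.3 and 104 CPM. The control groups overlapped (-0.04 ± 0.05, edgeR adjusted p = 0.549), and on knockdown TOP2A fell by 0.59 ± 0.05 in wild type (adjusted p = 4.1e-20) and 1.49 ± 0.06 in the knockout (adjusted p = 4.98e-41). The difference between the lines was -0.90 ± 0.08 (adjusted p = 9.56e-18).

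BIRC5, survivin, the passenger complex subunit that brings Aurora B to centromeres, ran from 61.2 to 81.1 CPM in WT_shCTRL (median 72.7), 44.2 to 62.5 in WT_shPTPN6 (median 48.2) and 59.9 to 70.0 in CD33KO_shCTRL (median 65.1). It was at 24.2, 14.6, 18.9, 19.6 and 15.5 CPM in CD33KO_shPTPN6, below all others. On knockdown BIRC5 fell by 0.52 ± 0.08 in wild type (edgeR adjusted p = 2.01e-09), and in the knockout it fell by 1.82 ± 0.12 (adjusted p = 9.76e-27). In the knockout with control vector BIRC5 was at -0.14 ± 0.08 and not called (adjusted p = 0.113, or 0.0331 without WT_shCTRL replicate 3). MKI67, the Ki-67 protein that coats mitotic chromosomes, fell by 0.26 ± 0.06 in wild type and 1.13 ± 0.09 in the knockout.

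Of 5 genes of the midzone and cytokinesis, which build the cleavage apparatus, 2 fell and 1 rose on knockdown in wild type, and 4 fell in the knockout. In wild type their median was 0.04, and their counts were near the 30.4% lower and 30.2% higher over all genes. In the knockout 21.6% of all genes were lower. PRC1, which bundles midzone microtubules, was at 33.1 to 43.7 CPM in WT_shCTRL (median 37.4), 18.9 to 24.3 in WT_shPTPN6 (median 21.1) and 17.0 to 28.0 in CD33KO_shCTRL (median 21.8). In CD33KO_shPTPN6 it was at 9.38, 10.5, 9.87, 13.4 and 10.2 CPM, below every other library. PRC1 fell by 0.82 ± 0.10 on knockdown in wild type (edgeR adjusted p = 4.45e-12). Within knockout cells the hairpin changed PRC1 by -1.05 ± 0.16 (adjusted p = 4.14e-08). With the control vector, PRC1 was lower in knockout than in wild-type cells, at -0.75 ± 0.11 (adjusted p = 3.25e-09). The difference between its knockdown effects was not called (-0.24 ± 0.20, adjusted p = 0.395).

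ANLN, anillin, the scaffold of the contractile ring, ran from 14.3 to 21.04 CPM in WT_shCTRL (median 15.8), 24.1 to 29.2 in WT_shPTPN6 (median 25.02) and 12.0 to 15.6 in CD33KO_shCTRL (median 14.5). Its CD33KO_shPTPN6 libraries held 11.4, 11.4, 13.9, 9.79 and 13.5 CPM and overlapped with CD33KO_shCTRL. Knockdown raised ANLN by 0.62 ± 0.11 in wild type (edgeR adjusted p = 6.39e-07), and in the knockout its change of -0.22 ± 0.17 was not called (adjusted p = 0.328). KIF23, a motor of the centralspindlin complex, had the largest difference between the lines, at 0.06 ± 0.14 in wild type (not called) and -1.55 ± 0.24 in the knockout. KIF20A, the motor that moves the passenger complex to the midzone, changed by -0.37 and -1.496.

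ECT2, the exchange factor that switches on RhoA at the cell equator, was at 0.04 ± 0.13 in wild type (not called) and -0.59 ± 0.21 in the knockout (edgeR adjusted p = 0.0163). The second call was lost without CD33KO_shPTPN6 replicate 6 (adjusted p = 0.0591). The called difference between the lines for ECT2 (adjusted p = 0.0448) was lost with DESeq2 (0.0607), without a filter on low counts (0.0788) and without any 1 of 12 single libraries (0.0512 to 0.109). These were WT_shCTRL replicates 1 and 4, WT_shPTPN6 replicates 1, 3 and 5, CD33KO_shCTRL replicates 2, 3 and 4 and CD33KO_shPTPN6 replicates 1, 4, 5 and 6. The differences for CCNB2 (adjusted p = 0.0329) and DLGAP5 (0.0203) were lost too, the first without CD33KO_shPTPN6 replicate 4 (0.0868), 5 (0.126) or 6 (0.0674) and the second without replicate 3 (0.0928).

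**Figure D4:**
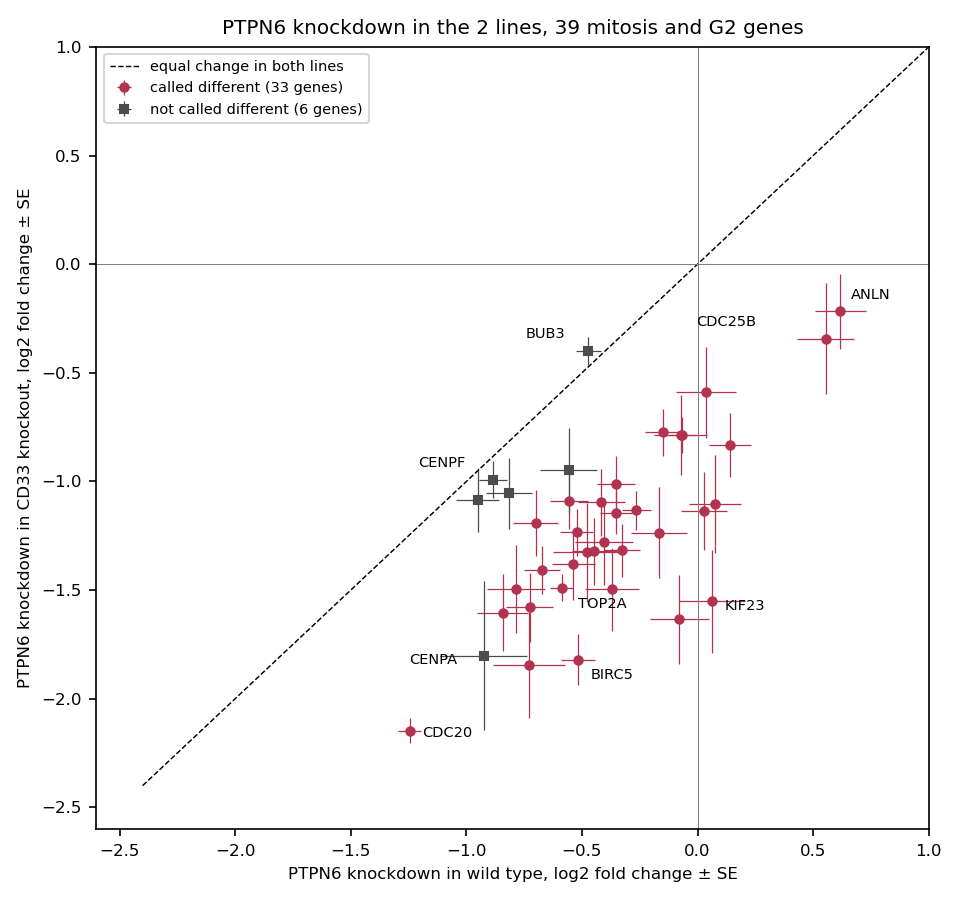
Each point is 1 of 39 genes, with its log2 fold change on PTPN6 knockdown in wild type (horizontal axis) and in the CD33 knockout (vertical axis), and bars of 1 SE; the dashed line marks equal change. The 33 genes in red, whose difference was called, lie below the line. The 6 in grey, BUB3, CENPA, CENPE, CENPF, NUF2 and PRC1, are those whose difference was not called; CENPA, at -0.88 ± 0.41, lies as far from the line as many red points.

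In the knockout with control vector, 4 of the 24 called falls were lost when single libraries were left out. MKI67 (-0.16 ± 0.07, edgeR adjusted p = 0.0408) was lost without WT_shCTRL replicate 1 or 4 or CD33KO_shCTRL replicate 1, 3, 4, 5 or 6 (adjusted p = 0.0514 to 0.086). BUB3 (-0.13 ± 0.06, adjusted p = 0.0371) was lost without WT_shCTRL replicate 2 or CD33KO_shCTRL replicate 1, 2 or 3 (0.0575 to 0.0981). ECT2 (-0.37 ± 0.15, adjusted p = 0.0348) was lost without WT_shCTRL replicate 3 or 5 or CD33KO_shCTRL replicate 1, 5 or 6 (0.0525 to 0.0927). KIF11 (-0.34 ± 0.13, adjusted p = 0.0229) was lost without WT_shCTRL replicate 4 (0.0514). DLGAP5 (-0.28 ± 0.13, adjusted p = 0.0628) was gained without WT_shCTRL replicate 2 (0.0282) or 4 (0.0334), WT_shPTPN6 replicate 6 (0.0484) or CD33KO_shCTRL replicate 1 (0.0411), and NDC80 (-0.18 ± 0.11, adjusted p = 0.157) without CD33KO_shCTRL replicate 2 (0.0433).

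A wider list of 74 other mitosis and G2 genes, of which 72 were tested, followed the same order. This list and those below were chosen with earlier results of these data known. They use the same libraries, so they are not separate evidence. Knockdown lowered 60 (83.3%) and raised 1 in the knockout (median -0.85), against 21.6% lower and 20.5% higher over all genes. It lowered 37 (51.4%) and raised 3 in wild type (median -0.25), against 30.4% and 30.2%. The difference was called with the lower value in the knockout for 36 (50%) and with the higher value there for 2. Over all genes those shares were 13.9% and 14.5%. ZWINT, a kinetochore protein, fell by 1.51 ± 0.07 in wild type and by 1.74 ± 0.10 in the knockout. SMC4, a condensin subunit, stood at 326.2, 171.0, 203.0 and 133.2 CPM (group means, WT_shCTRL, WT_shPTPN6, CD33KO_shCTRL and CD33KO_shPTPN6) and its knockdown effect was smaller in the knockout (difference 0.32 ± 0.08, edgeR adjusted p = 0.00075). ANAPC11, a subunit of the anaphase-promoting complex, was the single gene of this list that rose on knockdown in the knockout (0.24 ± 0.06, adjusted p = 0.001).

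Genes of DNA replication and S phase, which precede G2, were lowered by the hairpin mainly in the knockout. Of 50 tested, 42 (84%) fell and 2 rose there (median -0.87), where 21.6% of all genes were lower and 20.5% higher. In wild type 21 (42%) fell and 6 rose (median -0.14), where the shares over all genes were 30.4% and 30.2%. The difference was called for 37 (74%), each with the lower value in the knockout, against 13.9% of all genes. TYMS, thymidylate synthase, fell by 0.41 ± 0.06 in wild type and fell by 1.253 ± 0.10 in the knockout. In the knockout with control vector 10 of these 50 genes rose and 6 fell (median 0.09), both below the shares over all genes (28.3% higher and 28.4% lower). CCNE1, cyclin E1, was among those that rose, by 0.68 ± 0.14. RRM2, a subunit of ribonucleotide reductase, had a difference between the lines of -1.53 ± 0.15 (edgeR adjusted p = 5.71e-16).

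Of 13 listed regulators of the DREAM and B-MYB-MuvB program, RB1 among them, 12 were tested. On knockdown 6 fell and 1 rose in the knockout, where 21.6% of all genes were lower and 20.5% higher, and 4 fell and 2 rose in wild type, where the shares were 30.4% and 30.2%. MYBL2, which encodes B-MYB, stood at 92.0 ± 6.11 CPM in WT_shCTRL, 61.9 ± 6.63 in WT_shPTPN6, 86.7 ± 4.67 in CD33KO_shCTRL (n = 6 each) and 33.5 ± 5.94 in CD33KO_shPTPN6 (n = 5). It fell by 0.56 ± 0.07 in wild type (edgeR adjusted p = 3.17e-12), and in the knockout it fell by 1.38 ± 0.10 (adjusted p = 1.56e-24). E2F4, an E2F of the repressive DREAM complex, was the gene that rose in the knockout, by 0.50 ± 0.11 (adjusted p = 4.59e-05). It stood at 0.04 ± 0.09 in wild type. Between the lines, 4 of the 12 were higher in the knockout and 1 lower with the control vector. Over all genes 28.3% were higher and 28.4% lower there. With the hairpin 4 were higher and 6 lower, against 29.0% and 27.5%. E2F5 was called higher in the knockout with either vector.

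Inhibitors of cyclin-dependent kinases did not move as one. CDKN1A, which encodes p21, stood at 787.9 ± 17.8 CPM in WT_shCTRL and 928.2 ± 49.7 in WT_shPTPN6 (n = 6 each). It stood at 1075 ± 36.5 in CD33KO_shCTRL (n = 6) and 1354 ± 63.8 in CD33KO_shPTPN6 (n = 5), a rise in each comparison between groups. Its knockdown effect was 0.24 ± 0.04 in wild type and 0.33 ± 0.05 in the knockout, and the difference was not called (edgeR adjusted p = 0.27). CDKN1B, p27, rose on knockdown in both lines (0.59 ± 0.09 and 0.54 ± 0.14) and was lower in the knockout with control vector (-0.93 ± 0.12). CDKN2C, p18, fell in all of them, from 93.9 CPM in WT_shCTRL to 30.6 in CD33KO_shPTPN6.

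Markers of differentiation moved in the same comparisons. Of 12 macrophage markers 11 were tested, and the hairpin raised 10 and lowered 1 in wild type and raised 4 and lowered 2 in the knockout. Over all genes 30.2% were higher and 30.4% lower in the first comparison and 20.5% and 21.6% in the second. Their summed level went from 1010 to 1142 CPM without to 2593 to 2680 with the hairpin in wild type, and from 1344 to 1520 to 2420 to 2603 in the knockout. The markers did not move together. MSR1 and CD36 were called lower on knockdown in the knockout. In the knockout with control vector 4 of the 11 rose and 6 fell (median -1.08), CSF1R and CD4 among those that fell. Over all genes 28.3% were higher and 28.4% lower there. CD14, a large part of the summed level, had group means of 281.4, 870.4, 610.0 and 1327 CPM in the order WT_shCTRL, WT_shPTPN6, CD33KO_shCTRL, CD33KO_shPTPN6. Of 12 markers of undifferentiated myeloid progenitors 6 were tested. On knockdown in wild type 2 of them rose, RNASE2 and CEBPE, and 4 fell, FLT3 and MYB among them. In the knockout 3 rose on knockdown and 0 fell. With the control vector all 6 were lower in the knockout than in wild type. The shares over all genes are those just given for each comparison. The summed level of the 12 was 202.8 to 223.3, 137.7 to 176.9, 45.4 to 61.6 and 71.8 to 84.95 CPM in the same order. The defining marker MPO was at 0 in 17 of 23 libraries. The part of either list in the fall of the mitosis and G2 genes was not tested.

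Markers of other cell types were also measured. Of 9 epithelial and HEK-293 markers 3 were tested (CDH1, CDH2 and INA), with a summed level of 46.6 to 65.2, 64.1 to 104.1, 104.9 to 139.0 and 90.8 to 113.4 CPM in that order, and EPCAM was at 0 in 12 and PAX2 in 20 libraries. Of 10 fibroblast and endothelial markers 6 were tested, at 23.7 to 66.3, 18.1 to 65.03, 79.2 to 98.4 and 41.7 to 112.0 CPM, with CDH5 at 0 in 13 libraries. Both summed levels were higher in CD33KO_shCTRL than in WT_shCTRL without overlap, but not every gene followed. CDH1 and CDH2 were called higher there and INA lower. Of the 6 tested fibroblast and endothelial markers 2 were higher and 4 were not called. Over all genes 28.3% were higher and 28.4% lower. The part of either list in the results above was not tested. Lymphoid markers summed to at most 14.4 CPM in any library, and CD3E was at 0 in 19.

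Some counts could hold reads of a neighbour, because whether reads were counted by strand is not given in the sources used here. CCNA2 shares exon bases on opposite strands with EXOSC9, CDC25C with FAM53C, FOXM1 with ITFG2, KIF4A with PDZD11, and KIF20A with BRD8 and CDC23. Libraries also differed slightly within groups: WT_shPTPN6 replicate 3 was above its group mean for 31 of the 39 genes (median deviation 0.10 on the log2 scale), and CD33KO_shPTPN6 replicate 5, the shallowest library, for 11 (median -0.11).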

How the data were processed

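RNA was measured by 3' end sequencing in 23 libraries of 4 groups. The authors deposited whole-number counts per gene, made with STAR 2.7.3a and featureCounts (Subread 2.0.0) on hg38 per the submitters' processing notes; the annotation release and strand setting are not given in the sources used here. Of 60617 gene IDs, 60261 (99.41%) matched a symbol. In R 4.3.3, genes with enough counts by filterByExpr were scaled by TMM and fitted over all 4 groups with edgeR 4.0.16 (robust quasi-likelihood), and p-values were adjusted by Benjamini-Hochberg over 13098 genes. Standard errors (SE) are approximate and were derived from the fold change and its F statistic. The members and lists were chosen with earlier results of these data known. Values by library are given for called members with a mean of at least 5 CPM and the smallest adjusted p, up to 3 per direction and comparison, and for the highest member of each role; other lists are named by up to 2 called genes per direction and comparison. Alternatives were DESeq2 1.42.0 (Wald test and its size factors), no filter on low counts, the 2 groups compared alone, a replicate block and each library left out. The fitting steps were also run on simulated counts, for CD33KO_shPTPN6 against CD33KO_shCTRL only. The fit over all 4 groups and the difference between knockdown effects were not tested in that way. CD33KO_shPTPN6 replicate 2 was not analysed here.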

Additional observations from a re-analysis of the deposited data

Results flagged for a closer look

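The knockdown effect differed between the lines by the edgeR interaction test for 33 mitosis and G2 genes, and each is given here as the log2 effect of knockdown in knockout cells less its effect in wild-type cells. Among entry genes it was -0.79 for CDK1, -0.98 for CCNA2, -0.66 for CCNB1, -0.49 for CCNB2, -0.90 for CDC25B, -0.85 for CDC25C and -1.18 for FOXM1. Among kinases and checkpoint genes it was -1.17 for PLK1, -0.63 for AURKA, -0.99 for AURKB, -0.87 for BUB1, -1.56 for BUB1B, -0.855 for MAD2L1 and -1.07 for TTK. It was -0.90 for CDC20, -0.875 for UBE2C, -0.72 for PTTG1, -0.68 for NDC80 and -1.12 for SPC25. Among spindle genes it was -0.715 for KIF11, -0.735 for KIF2C, -0.76 for KIF4A, -0.71 for TPX2, -0.84 for HMMR, -0.71 for DLGAP5 and -0.53 for ASPM. It was -0.90 for TOP2A, -0.87 for MKI67, -1.30 for BIRC5, -1.125 for KIF20A, -1.62 for KIF23, -0.83 for ANLN and -0.63 for ECT2.

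In 10 of 160 gene and group combinations 1 library stood far from the others by Dixon's gap ratio, and chance gives about 1 in 20. CDC20 was at 104 CPM in WT_shPTPN6 replicate 4, below the others' 118 to 125, and at 532 in CD33KO_shCTRL replicate 2, above 454 to 471. PTTG1 was at 103 in WT_shCTRL replicate 1 (others 112 to 117), and NUF2 at 34.1 in WT_shCTRL replicate 5 (others 43.6 to 48.4). CENPE was at 33.4 in WT_shPTPN6 replicate 3 (others 18.8 to 23.2), NDC80 at 26.8 in replicate 5 (18.7 to 21.7) and KIF23 at 8.47 in replicate 4 (14.4 to 16.3). KIF11 was at 20.04 in CD33KO_shCTRL replicate 1 (others 14.7 to 16.5) and MKI67 at 119 in replicate 2 (89.9 to 98.04). PRC1 was at 13.4 in CD33KO_shPTPN6 replicate 5 (9.38 to 10.5).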

How the results depend on the processing

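Every count of called mitosis and G2 genes stayed within 1.5 times its reported value under the alternatives run. The number lower ranged from 22 to 25 for the knockout with control vector, 27 to 28 for knockdown in wild type, 36 to 37 for knockdown in the knockout, 37 to 38 between the lines under knockdown and 31 to 33 for the difference between knockdown effects, and was 39 throughout for both changes. Replicate numbers showed no pairing in deviations from the group mean, taken over all tested genes. Between libraries of different groups these deviations correlated from -0.049 to 0.032 for the same number. For different numbers they correlated from -0.066 to 0.066. Of 23 libraries, 3 correlated best with a library of their own number. With the replicate block the numbers lower were 24, 27, 37 and 37 for the first 4 of these, 33 for the difference and 39 for both changes, with CDC20 lost between the lines under knockdown (edgeR adjusted p = 0.0663). CCNB2's difference was lost without a filter on low counts (0.0663), and DLGAP5 was gained in the knockout when 2 groups were fitted alone (0.0446). Some uncalled values near 0 changed sign, and the cause was not tested. For the knockout with control vector KIF23 was at -0.025 without a filter, and leaving out 1 library moved AURKA from -0.016 to 0.12, SPC25 from -0.038 to 0.121, KIF2C from -0.068 to 0.005 and KIF23 from -0.091 to 0.107. For knockdown in wild type it moved KIF23 from -0.027 to 0.177 and ECT2 from -0.04 to 0.115. Counts in the knockout lines rest on totals of 2024032 to 3749258, which limits low genes such as CENPA.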
